A study of Mus musculus with 8 samples.

Results

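The GTPases of immunity-associated proteins (GIMAP) are encoded in the mouse by 8 genes, Gimap1, Gimap3, Gimap4, Gimap5, Gimap6, Gimap7, Gimap8 and Gimap9, taken by their name. All 8 were found among the 55335 genes of the count table, and all 8 were among the 15378 genes with enough counts to be tested. RNA-seq was performed on tumor-infiltrating lymphocytes (TILs) sorted as CD8+CD44+PD-1+, that is antigen-experienced CD8 T cells carrying the PD-1 receptor, from MC38 colon carcinomas grown subcutaneously in mice 6 to 10 weeks old. Tumors were collected on day 18 by the protocol and on day 14 by the design text, and 10000 to 20000 cells were sorted per sample. The 4 control samples (Lsd1f/f, WT, named S1 to S4) each pooled 2 mice, and the 4 LSD1-deficient samples (Cd4-Cre+Lsd1f/f, KO, named S5 to S8) each came from 1 mouse. Both genotypes carried the floxed Lsd1 alleles. Cre was driven by Cd4 regulatory sequences, which become active in thymocytes before CD4 and CD8 T cells part, so that mature CD8 T cells inherit the deletion, and WT mice lacked Cre.

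GIMAP proteins are septin-like GTPases that sit on intracellular membranes of lymphocytes and regulate how long T and B cells live. They are known above all from Gimap5, whose loss causes lymphopenia in rats and mice, and from Gimap1, without which mature T and B cells are lost from the periphery. The members are not interchangeable, since Gimap4 is known to hasten the execution of T cell apoptosis, Gimap6 binds an ATG8-family protein of the autophagy machinery, and Gimap7 can stimulate GTP hydrolysis by other GIMAP proteins.

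As a share of all counts the family was lower in LSD1-deficient TILs, but unevenly. Gimap7 fell to 0.437 and Gimap6 to 0.610 of the WT level, Gimap4 and Gimap3 stood at 0.775 and 0.806, and Gimap5, Gimap1, Gimap9 and Gimap8 lay between 0.878 and 0.955. Relative to the summed transcripts of 6 CD3 and CD8 genes, only the decrease of Gimap7 left groups apart. As a sum these 6 genes were lower in the same samples, and they were chosen after the values were seen. The sum over all 9 listed genes of T cell identity and of the sort gate overlapped between genotypes, and ratios to it were not taken. Levels are given as CPM, the counts of a gene scaled to a fixed library total by the TMM method. Under the call used throughout, a change above 1.5-fold with an adjusted p under 0.01 (edgeR quasi-likelihood test, adjusted over all 15378 genes), Gimap6 and Gimap7, 2 of the 8 genes, were called lower in KO, against 1.99% of all genes tested. None was called higher, against 2.91% of all genes tested. None was higher at an unadjusted p under 0.05 by edgeR either, and DESeq2 called 0 higher. The median log2 fold change of the 8 genes was -0.25, against -0.01 over all genes tested. All 8 fold changes were below 0 on the log2 scale, 4 of them with an unadjusted p under 0.05 by edgeR. The shares of all genes tested that lay below 0 or under this p were not counted. In 5 of the 8 genes every KO sample lay below every WT sample, as it did in 8.28% of genes tested. At an adjusted p under 0.05 with no demand on the fold change, 3 of the 8 were lower, against 4.98% of genes tested. Bulk RNA does not separate fewer cells expressing a gene from less RNA per cell, and this holds for each value given here.

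**Figure D1:**
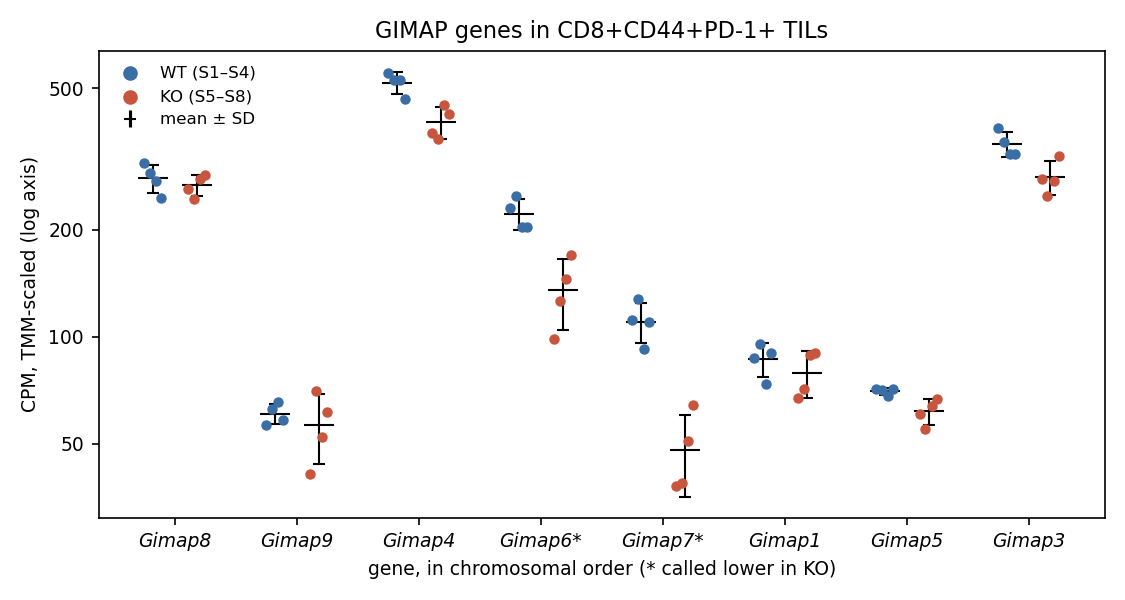
CPM (TMM-scaled, log axis) of the 8 GIMAP genes in chromosomal order, with a point per sample, WT in blue and KO in red, and black marks for the mean ± SD (n = 4). The groups are furthest apart at Gimap7 (110 against 48.0 CPM) and Gimap6 (222 against 135 CPM) and overlap at Gimap8, Gimap9 and Gimap1.

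Several measures of the libraries bear on these values. Sequencing gave 11657807 to 30295406 counts per sample, and S8 was the deepest. Kdm1a, the gene that encodes LSD1, averaged 44.9 CPM in WT (SD 1.87, n = 4) against 30.6 CPM in KO (SD 4.03, n = 4), and its highest KO value (34.8 CPM) was below its lowest WT value (42.7 CPM), though its log2 fold change of -0.55 (SE 0.14, edgeR adjusted p = 0.0163) did not meet the call. Myeloid markers moved with the genotype, as 12 of the 16 tested among 17 listed were called lower in KO and none higher, and their summed level was 446 to 1340 CPM in WT and 222 to 312 CPM in KO. S3 had the highest summed myeloid level of all samples (1340 CPM). Of the 8 endothelial markers, Emcn, Cldn5 and Tie1 had no counts in any sample, only Pecam1, which T cells also express, was called (higher in KO), and the sum was 20.5 to 30.7 CPM in WT and 60.2 to 89.1 CPM in KO. B cell markers summed to at most 5.84 CPM, and neither of the 2 tested was called. NK cell markers reached 53.9 CPM in WT and 51.1 CPM in KO, most of it Klre1, with none of 2 tested called. Of 4 markers of CD4 and regulatory T cells, Cd40lg and Zbtb7b were called higher in KO, and the sum was 40.1 to 57.0 CPM in WT against 121 to 155 CPM in KO, while Cd4 itself had 4.54 CPM in WT and 14.3 CPM in KO. Of the epithelial tumor markers, Krt8 and Krt19 had no counts, and the only one tested, Cdh1, was not called. The part of these other cell types in the GIMAP values was not tested beyond a fit with a myeloid score, which is given with the processing alternatives.

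Gimap7 changed most. Its level in WT was 111, 127, 92.1 and 110 CPM (S1 to S4) and in KO 37.9, 38.7, 50.9 and 64.4 CPM (S5 to S8). The groups did not overlap, and the lowest WT sample was S3, the one with the most myeloid RNA, while the highest KO sample was S8. With 110 CPM on average in WT (SD 14.4, n = 4) against 48.0 CPM in KO (SD 12.5, n = 4), the log2 fold change was -1.19 (SE 0.16, edgeR adjusted p = 9.29e-05), or 56.3% less. The call held in every fit that left out 1 sample, where the log2 fold change ran from -1.37 to -1.09. With a myeloid score as a covariate the log2 fold change was -2.18 and the call was lost (edgeR adjusted p = 0.0105). That score did not overlap between genotypes and the fit called only 1 gene lower among all tested, so it cannot tell genotype from myeloid RNA.

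Gimap6, whose product was found to bind a partner in the autophagosome pathway, came next. It had 231, 249, 204 and 203 CPM in S1 to S4 and 98.7, 126, 146 and 170 CPM in S5 to S8. Again each KO sample was below each WT sample, and KO samples differed among themselves more than WT samples did, with S5 the lowest and S8 the highest. WT averaged 222 CPM (SD 22.5, n = 4), KO 135 CPM (SD 30.3, n = 4), and the log2 fold change was -0.71 (SE 0.14, edgeR adjusted p = 0.00265). The call held in 6 of the 8 fits that left out 1 sample. It was lost without S2 (edgeR adjusted p = 0.0144, log2 fold change -0.65) and without S6 (edgeR adjusted p = 0.0125, log2 fold change -0.68). Genes called lower over the whole table also fell there, from 306 to 199 without S2 and to 256 without S6. With the myeloid score the log2 fold change was -1.45 and the call was lost (edgeR adjusted p = 0.0877). As for Gimap7, that fit cannot tell genotype from myeloid RNA.

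Gimap7 was also lower relative to Gimap6, a pair compared after their values were seen. The log2 ratio of Gimap7 to Gimap6 CPM was -1.05, -0.97, -1.14 and -0.88 in WT and -1.38, -1.70, -1.52 and -1.40 in KO, with no overlap and a mean difference of -0.49.

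Gimap4, the member tied to the execution of apoptosis, was the most abundant of the family. Its values were 553, 527, 527 and 467 CPM in WT and 375, 361, 450 and 422 CPM in KO. All KO samples lay below all WT samples, but by a small margin, as the lowest WT sample (S4) and the highest KO sample (S7) were close. The log2 fold change was -0.37 (SE 0.10, edgeR adjusted p = 0.0198), under the 1.5-fold limit and not called.

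None of the members best known for lymphocyte survival was called. Gimap5, which keeps T cells and other lymphocytes alive, had 71.1, 70.8, 68.1 and 71.1 CPM in WT and 60.5, 55.2, 63.9 and 67.0 CPM in KO. The WT samples were nearly equal and the highest KO sample (S8) was just under the lowest WT sample, so that the groups did not overlap, yet the log2 fold change was only -0.19 (SE 0.11, edgeR adjusted p = 0.321). Gimap3, the close paralog of Gimap5, had 386, 354, 327 and 326 CPM in WT and 277, 249, 274 and 323 CPM in KO. S8 came within a few CPM of the lowest WT samples, the other KO samples were clearly lower, and the log2 fold change was -0.31 (SE 0.10, edgeR adjusted p = 0.0578). Gimap1, needed by mature T and B cells, had 87.1, 95.3, 73.4 and 90.0 CPM in WT and 67.1, 71.2, 88.7 and 89.8 CPM in KO. The groups overlapped, with S7 and S8 at WT values, and the log2 fold change was -0.13 (SE 0.13, edgeR adjusted p = 0.606), with an interval of 2 SE from -0.38 to 0.13.

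Gimap8, the longest member, whose protein carries several GTPase domains in tandem, had 308, 288, 273 and 246 CPM in WT and 260, 244, 277 and 284 CPM in KO. These ranges overlapped almost wholly, and the log2 fold change was -0.07 (SE 0.10, edgeR adjusted p = 0.746), with an interval of 2 SE from -0.26 to 0.13. Gimap9 had 56.4, 62.8, 65.4 and 58.5 CPM in WT and 41.2, 70.4, 52.4 and 61.6 CPM in KO. It was the only member with both its lowest and its highest sample in KO, with a coefficient of variation of 22.2% against 6.68% in WT. The WT samples pooled mice and the KO samples did not, so that these spreads are not directly comparable. The log2 fold change of Gimap9 was -0.11 (SE 0.15, edgeR adjusted p = 0.729).

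Summed over the 8 genes, GIMAP transcripts made up 1804, 1775, 1629 and 1572 CPM in WT and 1218, 1215, 1402 and 1482 CPM in KO. The groups did not overlap, and the mean log2 difference was -0.35 (two-sided exact permutation test, p = 0.0286, the lowest that the 70 arrangements of 4 against 4 samples allow). The sum of the 6 genes that were not called also differed without overlap, by -0.25 on the log2 scale (exact permutation test, p = 0.0286). Gimap4 and Gimap3 had the most counts among these 6, while Gimap8, Gimap9 and Gimap1 overlapped between genotypes on their own.

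Transcripts of the T cell receptor complex and coreceptor, taken as a sum, were lower in the same samples. The summed level of Cd3d, Cd3e, Cd3g, Cd247, Cd8a and Cd8b1 was 2321, 2631, 2520 and 2716 CPM in WT and 2099, 2018, 2305 and 1993 CPM in KO, a mean log2 difference of -0.28 (exact permutation test, p = 0.0286), with no single gene of the 6 called. These 6 were taken from the 9 genes of T cell identity and of the sort gate after the values were seen. Within the 6, Cd3d had a log2 fold change of 0.02, and among the 3 left out Ptprc had -0.05, Pdcd1 -0.33 and Cd44 0.86. The sum over all 9 overlapped between genotypes, at 5189 to 5639 CPM in WT and 4869 to 5421 CPM in KO. Taken relative to these 6 chosen genes, the summed GIMAP level differed by -0.08 on the log2 scale (exact permutation test, p = 0.543) and the groups overlapped. Gimap7 still differed by -0.95 with no overlap (exact permutation test, p = 0.0286). Gimap6 differed by -0.46 with overlapping groups (exact permutation test, p = 0.0857), Gimap4 by -0.10 and Gimap3 by -0.04. Gimap1, Gimap5, Gimap8 and Gimap9 changed sign on this scale, to 0.14, 0.08, 0.21 and 0.14 (exact permutation p between 0.143 and 0.486). Of the 8 genes, only Gimap7 thus kept groups that did not overlap both against all counts and against these 6 genes. Ratios to the sum over all 9 genes were not taken, so this may depend on the choice of the 6.

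**Figure D2:**
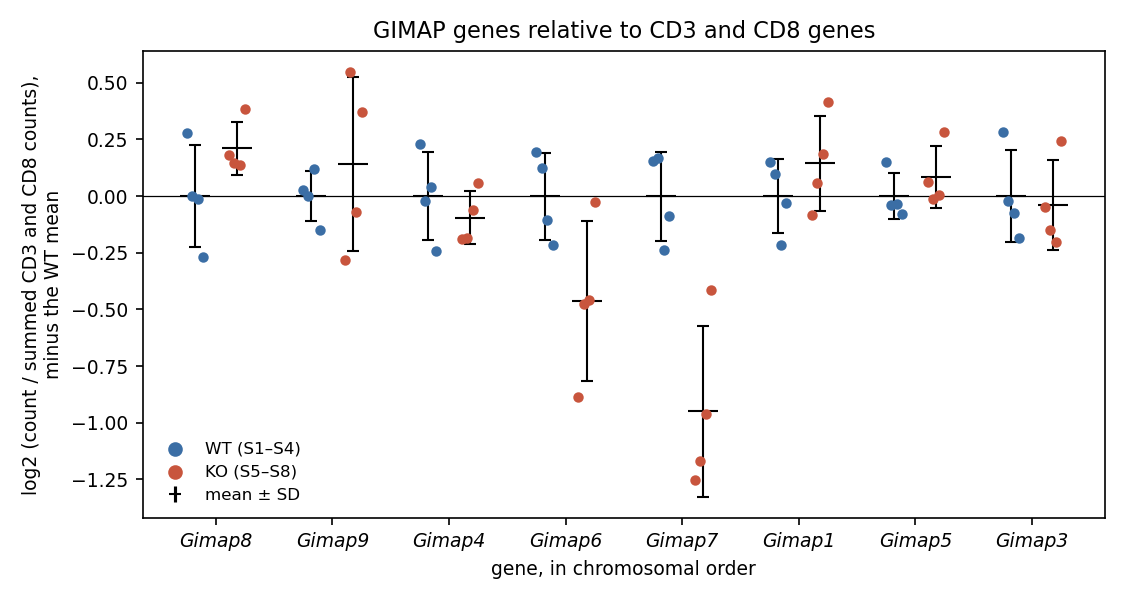
Log2 ratio of each GIMAP gene's count to the summed count of 6 CD3 and CD8 genes, minus the WT mean, with a point per sample (WT blue, KO red) and black marks for the mean ± SD (n = 4). Gimap7 lies lower in all 4 KO samples (mean -0.95), and Gimap6 is lower on average (-0.46) but overlaps.

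Levels were compared between genes as RPKM, that is CPM divided by the exon length of a gene in kilobases. In WT the order was Gimap4 (282 ± 19.9 RPKM), Gimap3 (135 ± 11.0 RPKM), Gimap8 (75.4 ± 7.02 RPKM), Gimap6 (63.4 ± 6.44 RPKM), Gimap7 (47.4 ± 6.20 RPKM), Gimap9 (37.0 ± 2.47 RPKM), Gimap1 (28.1 ± 3.03 RPKM) and Gimap5 (16.9 ± 0.358 RPKM), each with SD and n = 4. Among neighbors in that order, Gimap8 and Gimap6 overlapped, as did Gimap7 and Gimap9. In KO, Gimap7 moved from the fifth place to the seventh, at 20.6 ± 5.36 RPKM (SD, n = 4), and overlapped with Gimap1 (25.8 ± 3.82 RPKM). In KO the ranges of Gimap6 (38.6 ± 8.66 RPKM) and Gimap9 (34.3 ± 7.63 RPKM) overlapped, as did those of Gimap9 and Gimap1. Gimap4 and Gimap3 stayed first and second without overlap in either genotype.

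The composition of the GIMAP pool shifted accordingly. Gimap4 made up 41.2% ± 1.42 of the summed RPKM in WT and 41.0% ± 1.95 in KO (SD, n = 4), and Gimap3 19.7% ± 0.714 and 20.4% ± 1.46. Gimap7 went from 6.91% ± 0.797 to 3.82% ± 0.624 and Gimap6 from 9.24% ± 0.525 to 7.18% ± 1.02, without overlap. Gimap8 took a larger share in KO, 13.5% ± 0.623 against 11.0% ± 0.399 in WT, again without overlap, and the share of Gimap5 was 2.48% ± 0.155 in WT and 2.79% ± 0.134 in KO, with groups that only just parted. Shares of a whole move against each other, and the larger share of Gimap8 went with CPM values that overlapped between genotypes. Measured as the log2 ratio of a gene to the other 7, Gimap7 differed by -0.91, Gimap6 by -0.43, Gimap8 by 0.35 and Gimap5 by 0.17 (exact permutation test, p = 0.0286 for each before adjustment over the 8 ratios), while Gimap4 differed by -0.02 (exact permutation test, p = 0.743).

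**Figure D3:**
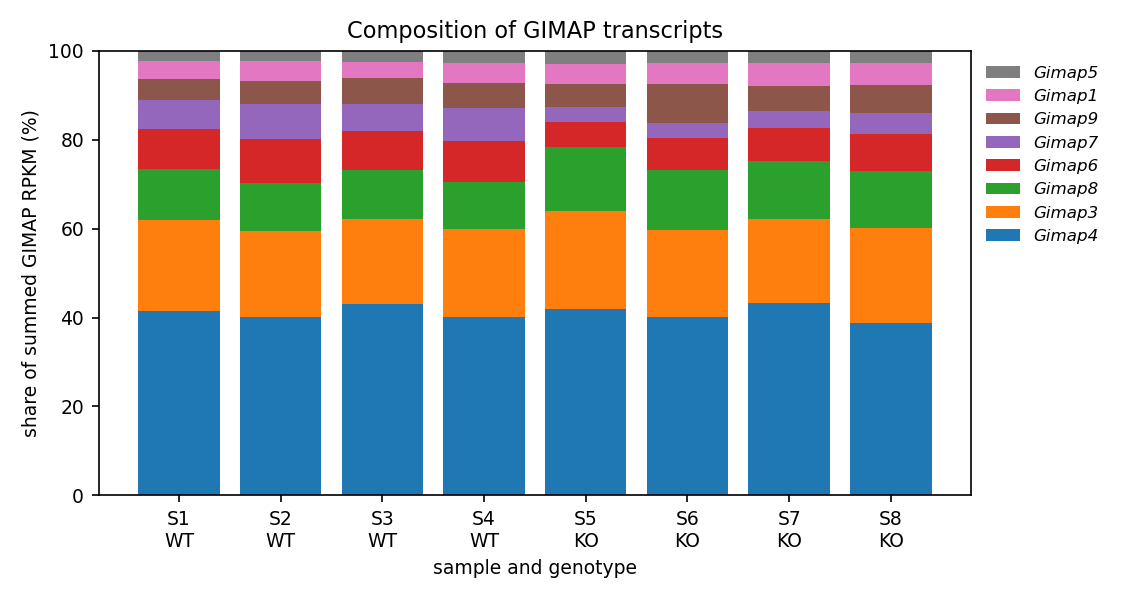
Share of each GIMAP gene in the summed GIMAP RPKM (%), stacked to 100% for each of the 8 samples. Gimap4 keeps about the same share throughout (41.2% in WT, 41.0% in KO), and the Gimap7 band narrows from 6.91% to 3.82%.

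Within a genotype, GIMAP genes tended to vary together. After the mean of each genotype was subtracted, 24 of the 28 pairs of members correlated positively over the 8 samples, with a median Pearson's r of 0.587 and a range from -0.286 to 0.929. The tightest pair was Gimap7 with Gimap1 (r = 0.929), followed by Gimap6 with Gimap7 (r = 0.892), and all 4 negative pairs involved Gimap9. These are descriptions, since the values of a sample share its library, depth and scaling. Pairs of other genes were not examined, so the covariation is not shown to be particular to the family. Among the genes of the transcriptome most like the family in pattern, by the correlation with the mean standardized level of the 8 members over 8 samples among 9744 genes, were Cnp (r = 0.977), Mief1 (r = 0.974), Gm11361 (r = 0.973) and Plekha2 (r = 0.971). Of these 4, only Cnp was called lower (log2 fold change -0.69, SE 0.16, edgeR adjusted p = 0.00765).

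The 8 genes form 1 cluster on chromosome 6, chr6:48647234-48770851 on GRCm38, a stretch of 123.6 kb that begins with Gimap8 and runs through Gimap9, Gimap4, Gimap6, Gimap7, Gimap1 and Gimap5 to Gimap3. The 2 called genes are neighbors. Gimap6 (chr6:48701582-48708225) lies on the minus strand and Gimap7 (chr6:48718621-48724636) on the plus strand, so that they are transcribed away from each other from start sites 10396 bp apart. On either side of this pair, the log2 fold change was -0.37 for Gimap4 and -0.13 for Gimap1, and at the ends of the cluster it was -0.07 for Gimap8 and -0.31 for Gimap3.

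**Figure D4:**
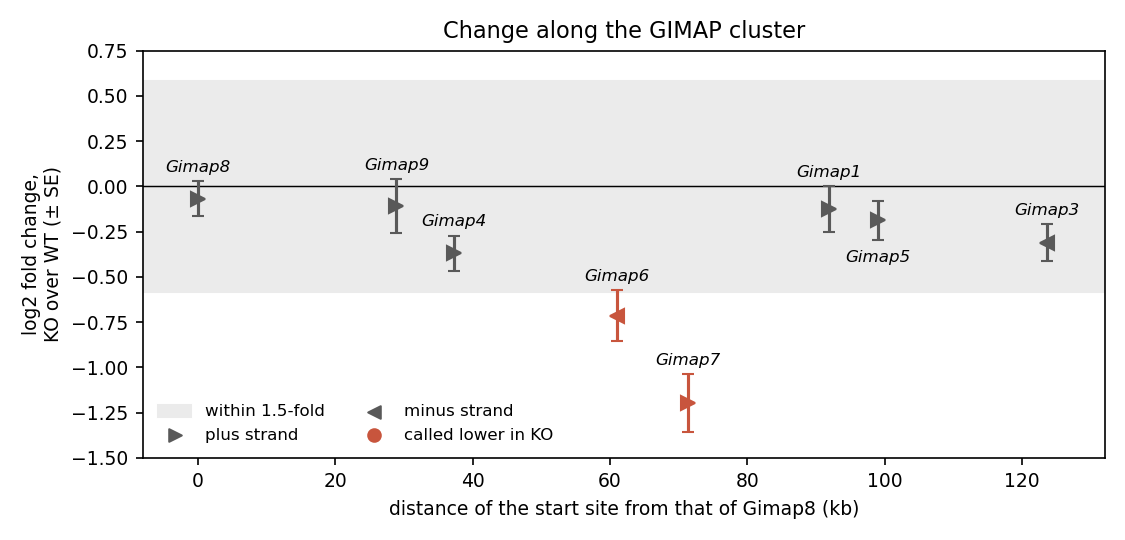
Log2 fold change of KO over WT (± SE, edgeR) of each GIMAP gene against the distance of its start site from that of Gimap8 in kb, with arrowheads for the strand and red for genes called lower. Gimap6 (-0.71) and Gimap7 (-1.19), side by side in the middle, lie outside the gray band of 1.5-fold, and the other 6 lie within it.

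The promoters of the 2 called genes are shown with that of Gimap4, the most abundant member, whose change was smaller. Each run is 300 bases of the RefSeq annotation on GRCm38.p6, 5′ to 3′ on the strand of the gene, from 250 bases before the start site to 50 after it. Capitals mark the exact letters CTTTGA or CTTTGT (TCF and LEF factors, which act in naive and memory-like T cells), TGTGGT (RUNX factors) and AGGAAG (ETS factors). They were searched on both strands, so that a capital run may show the reverse complement of these letters. Other sequences that these factors may bind were not searched.
Gimap6, chr6:48708195-48708494, minus strand: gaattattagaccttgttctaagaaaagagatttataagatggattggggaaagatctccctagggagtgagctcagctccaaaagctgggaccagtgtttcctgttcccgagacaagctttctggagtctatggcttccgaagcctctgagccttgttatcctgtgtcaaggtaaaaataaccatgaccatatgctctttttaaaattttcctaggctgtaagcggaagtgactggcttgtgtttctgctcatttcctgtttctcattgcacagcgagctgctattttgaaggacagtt
Gimap7, chr6:48718371-48718670, plus strand: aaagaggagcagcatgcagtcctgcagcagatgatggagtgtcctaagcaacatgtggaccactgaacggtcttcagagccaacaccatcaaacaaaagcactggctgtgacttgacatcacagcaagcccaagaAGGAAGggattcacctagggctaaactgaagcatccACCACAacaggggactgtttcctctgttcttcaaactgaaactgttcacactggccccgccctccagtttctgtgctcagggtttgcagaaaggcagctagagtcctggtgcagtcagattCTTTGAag
Gimap4, chr6:48684328-48684627, plus strand: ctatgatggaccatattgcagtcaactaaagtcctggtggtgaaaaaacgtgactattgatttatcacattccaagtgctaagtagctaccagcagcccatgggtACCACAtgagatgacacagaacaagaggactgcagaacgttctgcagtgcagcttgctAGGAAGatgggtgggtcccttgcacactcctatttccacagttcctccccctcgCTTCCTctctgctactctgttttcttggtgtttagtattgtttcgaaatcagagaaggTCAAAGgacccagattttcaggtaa
The Gimap6 window held none of these exact letters, though it holds cggaag, which differs from AGGAAG in its first letter. The Gimap7 window held AGGAAG 115 bases before the start site, TGTGGT on the other strand 79 bases before it, and CTTTGA at position 43 after it, and the Gimap4 window held all 3 kinds as well. Over the 9 promoter entries of the 8 members (Gimap8 has 2), the TCF and LEF letters were found in 5, the RUNX letters in 3 and the ETS letters in 7, against 31.2%, 16.8% and 35.4% of all 32851 promoters of the same length. The 2 Gimap8 windows overlap and hold the same pair of CTTTGT runs, so that the TCF and LEF letters were found in 4 of the 8 members. The called genes thus differed from each other in these exact letters, which does not show that the Gimap6 promoter lacks sites for these factors. Binding was not measured.

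How well single members can be told apart depends on their sequence. The coding sequences of Gimap3 and Gimap5 were 90.4% identical over 895 aligned bases, while every other pair of members was at most 66.6% identical. Their longest identical coding run, 140 bases, is shown because a read that lies inside it fits both genes equally:
Gimap3 and Gimap5, shared coding run: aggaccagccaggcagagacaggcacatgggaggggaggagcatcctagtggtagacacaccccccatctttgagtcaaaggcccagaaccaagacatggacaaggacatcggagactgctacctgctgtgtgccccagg
Of the stretches of 40 bases in its transcripts, Gimap3 shared 11.3% and Gimap5 6.21% with other genes. Gimap6 (0.37%) and Gimap7 (0%) shared next to none, apart from 1.81% that Gimap7 has in common with the read-through gene Gm28053. Gm28053 had at most 85 counts in a sample. Gimap1 overlaps on the opposite strand with Gimap1os, an antisense transcript that covers 36.0% of its exon bases, and whether counting used the strand is not given in the sources used here. On average Gimap1os had 25.2 CPM in WT (SD 4.95, n = 4) against 16.05 CPM in KO (SD 4.90, n = 4), and the log2 fold change was -0.65 (SE 0.23, edgeR adjusted p = 0.0756).

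The other genes beside the cluster, or between its members, were low in these cells. AI854703, directly before Gimap8, had 3.10 CPM in WT and 2.98 CPM in KO (log2 fold change -0.06, SE 0.52, edgeR adjusted p = 0.970). Zfp775, before AI854703, had 9.70 CPM in WT and 8.14 CPM in KO (log2 fold change -0.25, SE 0.25, edgeR adjusted p = 0.613). Between Gimap5 and Gimap3, the noncoding 4833403J16Rik had 4.27 CPM in WT and 5.39 CPM in KO (log2 fold change 0.34, SE 0.34, edgeR adjusted p = 0.614). Tmem176b, which follows Gimap3 and is abundant in myeloid cells, fell from 6.77 to 0.501 CPM (log2 fold change -3.69, SE 0.51) and was called, and its neighbor Tmem176a had 3.14 and 0.441 CPM and was too low to be tested. Both are values to read beside the myeloid markers, which were lower in the same samples.

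GIMAP genes were set beside 4 other lists of genes with related roles. Over all genes tested, 1.99% were called lower and 2.91% higher. Of 20 genes of T cell quiescence and recirculation, 1 was called lower and 2 higher, with a median log2 fold change of 0.16. Ccr7, the receptor that guides T cells into lymph nodes, fell from 170 to 90.9 CPM (log2 fold change -0.90, SE 0.12), while Il7r, the receptor for the survival cytokine IL-7, rose from 184 to 424 CPM (log2 fold change 1.20, SE 0.12), and the chromatin organizer Satb1 rose from 312 to 489 CPM (log2 fold change 0.65, SE 0.09). Il7r thus moved the opposite way to Gimap6 and Gimap7. Of 13 genes of the BCL2 family, which sets the threshold of mitochondrial apoptosis, 2 were called lower and none higher, and the 2 have opposed roles. The antiapoptotic Bcl2 fell from 322 to 179 CPM (log2 fold change -0.84, SE 0.18) and the proapoptotic Bcl2l11, which encodes BIM, from 199 to 104 CPM (log2 fold change -0.94, SE 0.12).

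A list of other immune GTPases, induced by interferon, moved in the other direction where its genes were called. Of the 15 genes listed, 3 were called higher, against 2.91% of all genes tested, and none lower. The median log2 fold change was 0.35. Gbp6 rose from 62.3 to 107 CPM (log2 fold change 0.78, SE 0.14), Tgtp2 from 36.3 to 59.1 CPM (0.71, SE 0.15) and Irgm2 from 68.2 to 104 CPM (0.61, SE 0.14). Of the 9 genes of T cell identity and of the sort gate, only Cd44, the adhesion receptor used in sorting, was called (higher, from 433 to 785 CPM, log2 fold change 0.86, SE 0.12). The median of these 9 genes, -0.27, was close to the GIMAP median of -0.25, with Cd8b1 at -0.39 and Cd8a at -0.27.

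**Figure D5:**
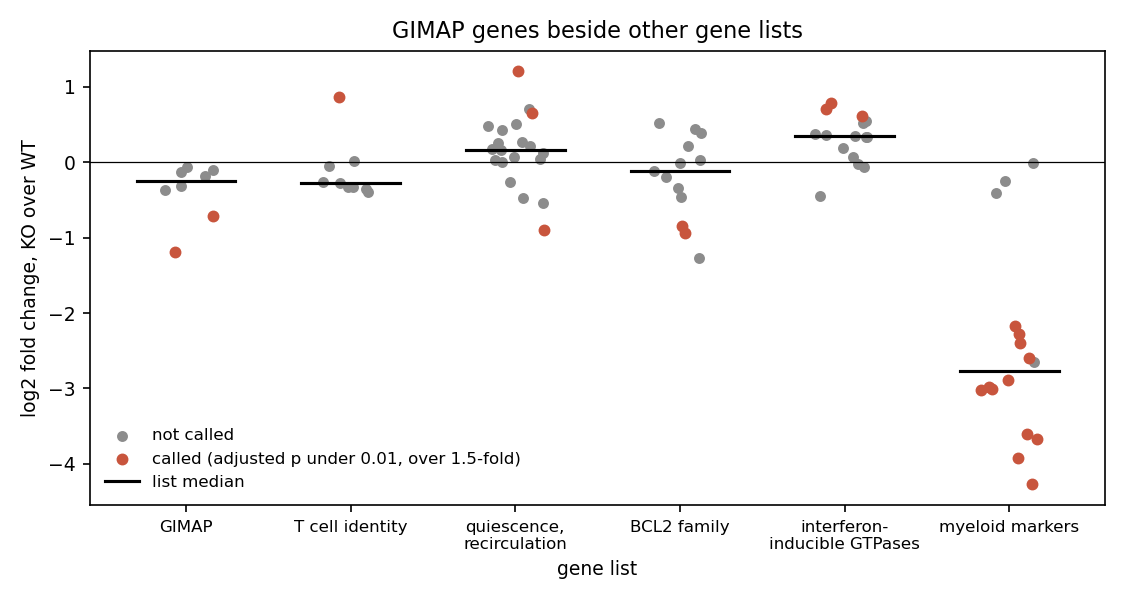
Log2 fold change of KO over WT of each tested gene of the GIMAP family and of 5 other lists, with called genes in red and black lines at the list medians. The GIMAP median (-0.25) lies beside that of the T cell identity genes (-0.27), the median of the interferon-inducible GTPases lies above 0 (0.35) and that of the myeloid markers far below (-2.77).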

How the data were processed

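The deposited table held raw counts per gene, which the authors made by aligning reads to the mouse genome with STAR and counting with featureCounts; whether counting used the strand and how overlapping genes were handled is not given in the sources used here. Table columns were assigned to genotype by the study's sample names, without replicate numbers. Symbols were matched regardless of case. Genes with too few counts were removed (filterByExpr), libraries scaled by TMM, and genotypes compared by the quasi-likelihood test of edgeR 4.0.16 in R 4.3.3, with Benjamini-Hochberg adjustment. Genes were called at more than 1.5-fold with adjusted p under 0.01. CPM and RPKM (over merged exons) used TMM-scaled totals. Single values were compared by two-sided exact permutation tests in scipy 1.17.1. DESeq2 1.42.0 and other settings served as alternatives. Members and gene lists were chosen with earlier results of these data known. The genes named are all members, genes overlapping or flanking them, Kdm1a, the 5 genes most alike in pattern (1 of which is not reported here), and the called members of each list, or otherwise its most abundant genes; Cd4, Cd8a, Cd8b1, Ptprc, Pdcd1, the CD3 genes and the marker genes with no counts were named in addition, after their values were seen. Replicate pairs differed by more than sampling noise (median chi-square 4.83 to 8.33 per gene, against 0.455), so each counted as 1 sample.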

Additional observations from a re-analysis of the deposited data

Results flagged for a closer look

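In 34 groups of 4 samples examined (each GIMAP gene, its ratio to the other members, and the sum, in each genotype), 2 held a sample standing apart from the rest, and chance flags about 1 in 20. Among WT samples, S3 was the lowest for Gimap5 (68.1 CPM, against 70.8 to 71.1 CPM), with a gap of 0.889 of the group's log2 range. Among KO samples, S5 was the highest for the log2 ratio of Gimap5 to the other members (-4.26, against -4.40 to -4.39), with a gap of 0.913 of the range.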

How the results depend on the processing

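Of the 2 GIMAP genes called lower, Gimap7 alone remained called in a test against a 1.5-fold change (count 1; Gimap6 adjusted p = 0.668). Neither was called with a myeloid score as a covariate (count 0). There the median of the 8 genes moved to -0.66, and Gimap7 had -2.18 (adjusted p = 0.0105) and Gimap6 -1.45 (adjusted p = 0.0877); this score did not overlap between genotypes (3.89 to 5.49 in WT, 1.59 to 2.44 in KO), and that fit called only 1 gene lower among all tested. With 1 sample left out, 1 to 2 genes were called (1 without S2 and 1 without S6). Over these fits Gimap9 ran from -0.229 to 0.0188 (without S5). Relative to the CD3 and CD8 genes, an alternative chosen after seeing the data, the summed difference was -0.0784 (exact permutation p = 0.543), and Gimap1, Gimap5, Gimap8 and Gimap9 turned to 0.144, 0.0837, 0.211 and 0.142. Other scalings, filters, the GC offset, the likelihood ratio test, DESeq2 and an adjusted p threshold of 0.05 left the calls of all 8 genes as reported, and the sum, recomputed under the scalings and filters, kept its direction and its side of the threshold there. The number of genes called lower over the whole table was 306 as reported, 130 in the test against 1.5-fold, 461 by DESeq2, 481 by the likelihood ratio test, 551 at the 0.05 threshold and 531 with no filter, and 199 without S2; that called higher was 447 as reported, 165 in the test against 1.5-fold, 695 at the 0.05 threshold and 24 with the myeloid score. No paired analysis was possible because the table's columns carry no replicate numbers. Each group has 4 samples, so an exact p cannot fall below 0.0286.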
